A study of Mus musculus with 6 samples.

Results

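The collagens and the proteins that modify, fold, trim and cross-link them were followed as a set of 35 genes in mammary glands of Elf5 knockout (KO) and wild-type mice. The set was defined by gene function and holds 24 collagen chains and 11 processing proteins. Each gene was read from 1 probe set, namely the brightest on average of those annotated to that gene alone. Of the 35 genes, 34 had such a probe set, out of 18193 genes measured. The only probe sets for Loxl2, a collagen cross-linking oxidase, are annotated to a second gene as well, so Loxl2 was not read. A filter on the mean level kept 31 of the 34 for testing, and Col4a3, Col4a4 and Col11a1 fell below it. Col8a1 passed that filter through its KO arrays.

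Total RNA from mammary gland was hybridised to 1-colour Affymetrix mouse arrays, 1 array per animal. The groups were 3 mice labelled Elf5 KO and 3 mice labelled wild type. By their labels all 6 animals were at pregnancy day 17, but lactation day 1 is the stage named in the design text. The sources used here do not give strain, age, the type of Elf5 allele or any Cre driver. Elf5 belongs to the ETS family of transcription factors and is needed for milk-secreting alveoli to form. Here its loss is compared with wild type for the transcripts of the collagen matrix.

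Collagens are secreted trimers wound into a triple helix. Fibril-forming types I, III and V make the tensile fibres of the stroma, type IV forms the sheet-like network of basement membranes, and type VI makes beaded filaments around cells. Inside the cell, prolines and lysines of the chains are hydroxylated and the chaperone encoded by Serpinh1 holds the trimer folded. Outside, the propeptides are trimmed off and lysyl oxidases cross-link the fibrils. In the mammary gland, fibroblasts make most fibrillar collagen, and the epithelium rests on the type IV network.

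Elf5 read 5616, 4361 and 3128 signal units in KO arrays 1, 2 and 3, against 12011, 8044 and 7244 in wild-type arrays 1, 2 and 3. All 3 KO arrays thus lay below all 3 wild-type arrays, although signal remained (-1.06 ± 0.32 on the log2 scale, limma adjusted p = 0.109, and 0.0151 with the replicate number as a block). Whether the probe set lies inside a deleted stretch is unknown here. Gapdh has control probe sets at both ends of its transcript, and partial RNA raises the 3'-to-5' quotient of their signals above that of intact RNA. This Gapdh ratio was 0.802, 3.89 and 13.6 in KO arrays 1, 2 and 3, against 1.09, 0.833 and 0.876 in wild type (two-sided exact permutation p = 0.4, where 3 against 3 arrays allow no p under 0.1). The same ratio for Actb was 1.58, 1.87 and 21.0 in KO arrays 1, 2 and 3, against 2.04, 1.20 and 1.84 in wild type (p = 0.5 by the same exact test). KO array 3 was thus raised by both controls, KO array 2 by Gapdh but not Actb, and KO array 1 by neither. The difference of KO array 1 from the mean of the wild-type arrays is therefore given beside the results, and it has no replicate. Within groups, arrays correlated at 0.822 to 0.955 over the genes tested, and between groups at 0.718 to 0.921. KO array 1 correlated with wild-type arrays 1 to 3 at 0.921, 0.904 and 0.911, and with KO arrays 2 and 3 at 0.904 and 0.822. In whole-tissue RNA, fewer cells of a type and less RNA per cell cannot be told apart.

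Where RefSeq promoter windows were at hand, the sequence upstream of the members' starts was read from GRCm38.p6. These are 250 bases long and end just before the annotated start. A total of 25 members matched, with 27 windows. Windows are shown for the type I chain Col1a2, the type VI chain Col6a3 and the chaperone Serpinh1, because these members of 3 different roles were among those that rose with the block described below. Capitals mark CCAAT, the GC box GGGCGG and AGGAAG, which holds the GGAA core bound by ETS factors, each searched on both strands.
Col1a2, chr6:4505368-4505617, plus strand: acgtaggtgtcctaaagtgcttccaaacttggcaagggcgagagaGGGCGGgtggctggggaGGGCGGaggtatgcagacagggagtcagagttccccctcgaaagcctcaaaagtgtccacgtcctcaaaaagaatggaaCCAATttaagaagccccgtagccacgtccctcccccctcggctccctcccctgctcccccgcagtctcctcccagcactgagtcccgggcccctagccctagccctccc
Col6a3, chr1:90843972-90844221, minus strand: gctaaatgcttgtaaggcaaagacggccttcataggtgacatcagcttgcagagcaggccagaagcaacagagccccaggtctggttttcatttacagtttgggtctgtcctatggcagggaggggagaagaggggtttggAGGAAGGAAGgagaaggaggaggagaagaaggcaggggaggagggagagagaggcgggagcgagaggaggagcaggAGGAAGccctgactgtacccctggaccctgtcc
Serpinh1, chr7:99353240-99353489, minus strand: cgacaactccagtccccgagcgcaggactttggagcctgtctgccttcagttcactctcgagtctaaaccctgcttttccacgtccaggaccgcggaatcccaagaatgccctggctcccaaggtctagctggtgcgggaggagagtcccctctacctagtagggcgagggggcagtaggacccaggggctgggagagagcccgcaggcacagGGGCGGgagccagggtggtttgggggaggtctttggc
The Col1a2 window held 2 GC boxes, 205 and 188 bases before the start, and a CCAAT 109 bases before it. The Col6a3 window held AGGAAG 3 times, with 2 copies that overlap, and the Serpinh1 window held 1 GC box. Over the members, 18 of 27 windows (66.7%) held GGGCGG, against 32.7% of all 32851 windows and 42.6% of 21263 windows of protein-coding genes. CCAAT stood in 11 of 27 (40.7%), against 33.8% of all and 35.4% of protein-coding windows. AGGAAG stood in 7 of 27 (25.9%), against 29.5% and 28.5%. These are matches of letters and show no binding.

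Collagen transcripts were higher in the KO glands across most of the set, and the difference was modest in size. Of the 31 genes tested, 27 had a higher mean in the KO, or 87.1%, against 53.9% of all genes tested. The median log2 difference was 0.82, against 0.06 over all genes tested, on the log2(signal + 16) scale that all differences below use. Over all 34 genes measured, 28 had a higher mean and the median was 0.78. Single genes rarely passed a test across the genome: 1 member rose and 0 fell at a limma adjusted p under 0.05, where 1.24% of all genes passed (1.13% higher and 0.11% lower). At an unadjusted p under 0.05, 15 members passed, all 15 higher, against 13.4% of all genes in that direction. Arrays of the same replicate number deviated together from their group means. With that number as a block, 9 members rose and 0 fell (29.0% higher), where 12.2% of all genes passed (7.7% higher and 4.53% lower). After quantile normalization 3 members rose, where 1.66% of all genes passed. In 13 members (41.9%) all 3 KO arrays lay above all 3 wild-type arrays, against 16.7% of all genes, and in 0 of the 31 they lay below, against 10.6%. A log2 difference of 1 or more was reached by 10 members, against 8.89% of all genes. Col8a1, which passed the filter through its KO arrays, is among the 27, 15, 9, 13 and 10 members of these counts.

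**Figure D1:**
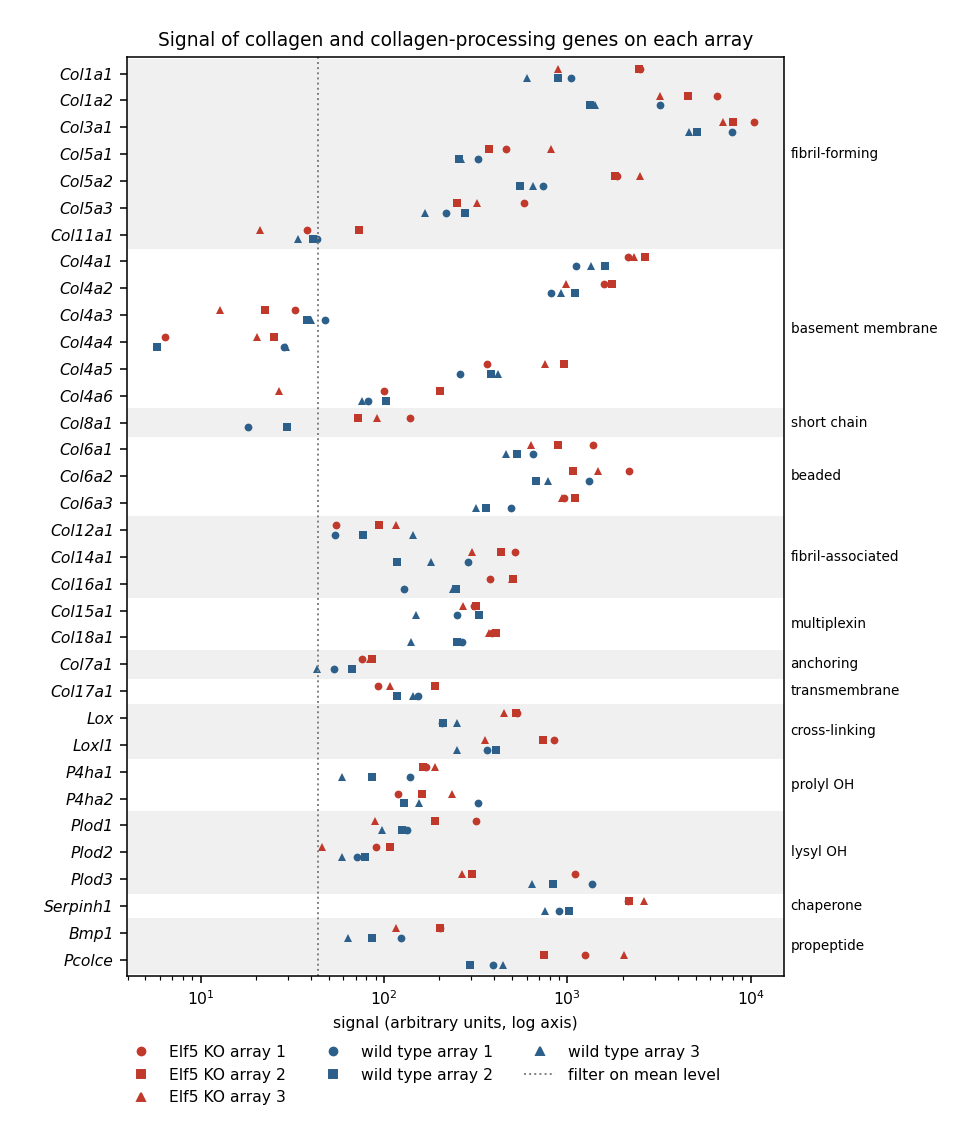
Signal of each of the 34 genes measured (arbitrary units, log axis), with Elf5 KO arrays in red above wild-type arrays in blue, 1 point per array and a shape per replicate number. The dotted line marks the filter, a signal of 43.8. The KO points of Col5a2, Col6a3, Lox, Serpinh1 and Pcolce lie wholly to the right of the wild-type points, while those of Col12a1, Col17a1 and P4ha2 are mixed with them.

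Among the fibril-forming chains, all 6 tested had a higher mean in the KO, with a median difference of 0.96. The largest difference and the only call was in Col5a2, a type V chain that helps to start fibrils and set their width. Col5a2 read 1871, 1826 and 2502 in KO arrays 1, 2 and 3, against 732, 552 and 646 in wild type. The groups were well apart, with a mean of 2066 ± 378 in the KO against 643 ± 89.8 in wild type (SD, n = 3 each). Col5a2 rose by 1.65 ± 0.28 on the log2 scale (SE, n = 3 per group, limma adjusted p = 0.0441). The call needed every array except KO array 1: adjusted p was 0.114 and 0.0631 without KO array 2 or 3, and 0.0988, 0.216 and 0.146 without wild-type array 1, 2 or 3, while the difference stayed at 1.51 to 1.75. With that ratio in the model as a covariate it was 1.45 (adjusted p = 0.172), and it was 1.53 with KO array 1 alone against wild type (adjusted p = 0.185). Its dimmer probe set read 316, 192 and 282 in the KO, against 62.7, 68.5 and 66.8 in wild type, a difference of 1.74. The partner chain Col5a1 read 461, 374 and 810.2 in KO arrays, against 325, 258 and 263 in wild type. On this probe set its arrays did not overlap either, with a difference of 0.85 ± 0.34 (adjusted p = 0.192). A second Col5a1 probe set also separated the groups, with a difference of 1.10. A dimmer one, still above the filter, read 126.5, 118.7 and 37.9 in the KO, against 66.0, 96.5 and 53.5 in wild type. Its groups overlapped, with a difference of 0.23. Col5a3, the third type V chain, read 579, 251 and 320.4 in the KO, against 218, 278 and 166 in wild type, so that KO array 2 lay inside the wild-type range.

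Type I collagen is the most abundant fibre of connective tissue. On the brightest probe set of each, its chains were higher in 2 of the 3 KO arrays by a clear margin. Col1a1 read 2491, 2451 and 889.8 in KO arrays 1, 2 and 3, against 1051, 887 and 606 in wild type. Col1a2 read 6515, 4545 and 3184, against 3187, 1327 and 1414. On these probe sets KO array 3, with the highest Gapdh ratio, was the lowest KO array for both and fell inside the wild-type range. The differences were 1.08 ± 0.43 for Col1a1 and 1.32 ± 0.41 for Col1a2 (adjusted p = 0.192 and 0.115). Both rose with the replicate number as a block (adjusted p = 0.0385 and 0.0158). In KO array 1 alone they differed from the wild-type mean by 1.57 and 1.83. A second Col1a1 probe set read 565, 424 and 506 in the KO, against 436, 199 and 225 in wild type. A second Col1a2 probe set read 2466.5, 2056 and 1944, against 987, 550 and 903. On both, KO array 3 lay above every wild-type array, and the differences were 0.84 and 1.42. Col3a1, whose type III fibres run with type I, read 10437, 8030 and 7047 in the KO, against 7911, 5088 and 4625 in wild type. This bright probe set differed by 0.55 ± 0.30 (adjusted p = 0.306), while a dimmer Col3a1 probe set, at 1426, 1183 and 1037 against 562, 405 and 469, separated the groups and differed by 1.32. Col11a1, a minor fibrillar chain typical of cartilage, was below the filter at 38.0, 73.1 and 21.1 in the KO, against 43.1, 41.2 and 34.1 in wild type.

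Type VI collagen, which links cells to the surrounding stroma, had a higher KO mean in all 3 of its measured chains. Col6a3 read 961, 1102 and 938 in KO arrays 1, 2 and 3, against 496, 360.4 and 318 in wild type. It kept the groups apart by nearly the same margin in each KO array, with a difference of 1.34 ± 0.29 (adjusted p = 0.0602), and rose with the block (adjusted p = 0.0208). Col6a1 read 1375, 894 and 637 in the KO, against 650.4, 533 and 463 in wild type, with a difference of 0.75 ± 0.34. Col6a2 read 2177, 1071 and 1475, against 1316, 672 and 780.2, with a difference of 0.76 ± 0.37. In both, 1 KO array lay below wild-type array 1, and neither passed with or without the block. A second Col6a2 probe set, also above the filter, read 1371, 650 and 499 in the KO, against 827, 503 and 505 in wild type. Its groups overlapped, with a difference of 0.35.

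The fibril-associated collagens sit on the surface of fibrils, and 2 of the 3 had a higher mean in the KO. Col14a1 read 521, 435 and 301 in the KO, against 288, 117 and 180.2 in wild type, with a difference of 1.09 ± 0.37 (adjusted p = 0.141, and 0.0508 with the block). Col16a1 read 379, 503 and 496 in the KO, against 129, 248 and 237 in wild type, a difference of 1.15 ± 0.33 (adjusted p = 0.0975) that passed with the block (adjusted p = 0.0311). Both genes had KO arrays wholly above wild type. Col12a1 read 54.7, 94.1 and 116 in the KO, against 54.0, 76.4 and 143 in wild type, so the groups covered the same range (difference 0.00 ± 0.38).

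The short-chain collagen Col8a1, known from vessel walls and remodelling tissue, had the largest ratio of group means. It read 139, 71.7 and 92.0 in KO arrays 1, 2 and 3, against 18.1, 29.4 and 29.6 in wild type. The KO mean was 3.93 times the wild-type mean, but the wild-type signals were dim and the log2 difference was 1.46 ± 0.32 (adjusted p = 0.0594, and 0.0239 with the block). A dimmer Col8a1 probe set, below the filter, read 63.0, 35.8 and 15.2 in the KO, against 45.5, 25.9 and 28.8 in wild type and did not separate the groups.

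The type IV chains of the basement membrane formed a mixed group. The genes of this family lie in head-to-head pairs. By the RefSeq starts, Col4a1 and Col4a2 begin 21 bases apart, and Col4a5 and Col4a6 begin 1343 bases apart. Col4a1 read 2144, 2649 and 2298 in the KO, against 1109.8, 1604 and 1350.2 in wild type. On this probe set its groups did not overlap. The difference was 0.81 ± 0.28 (adjusted p = 0.144, and 0.0508 with the block). Col4a2, its partner in the common trimer, read 1584, 1749.7 and 978 in the KO, against 810.1, 1104 and 921 in wild type. In KO arrays 1 and 2 the pair moved by similar amounts on these probe sets. The log2 ratios of Col4a1 to Col4a2 were within 0.09 of the wild-type mean there, and in KO array 3 that ratio was 0.71 higher. A second Col4a1 probe set, also above the filter, read 1236, 1481 and 947 in the KO, against 857, 1165 and 773 in wild type. Its groups overlapped, with a difference of 0.38. It put KO array 3 at 0.04 above the wild-type mean, against 0.06 for Col4a2.

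The second pair was less even. Col4a5, a chain of specialised basement membranes, read 365, 964 and 759 in the KO, against 261, 381 and 418 in wild type. Its difference was 0.87 ± 0.39 (adjusted p = 0.234), and KO array 1 lay only 0.07 above the wild-type mean. A second Col4a5 probe set put KO array 3 at -1.13 and the difference at 0.08. Col4a6 read 100, 202 and 26.6 in the KO, against 81.3, 103 and 76.1 in wild type, and showed no common direction. A second Col4a6 probe set read 31.6, 145 and 77.7 in the KO, against 32.0, 42.9 and 48.4 in wild type. It put KO array 3 at 0.73 and the difference at 0.66. The third pair was dim on every array. Col4a3 read 32.6, 22.5 and 12.7 in the KO, against 47.9, 38.0 and 40.1 in wild type, below in all KO arrays but under the filter, and Col4a4 read at most 25.1 in the KO and at most 29.2 in wild type.

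Neither collagen tied to epithelium passed the test. Col17a1, the transmembrane collagen of hemidesmosomes, read 92.6, 189.6 and 108 in the KO, against 153, 118 and 144 in wild type, with overlapping groups (-0.13 ± 0.32). Col7a1, which forms the anchoring fibrils under stratified epithelia, read 76.1, 86.0 and 84.3, against 53.5, 66.7 and 43.0 in wild type. Its KO arrays lay above the wild-type arrays by a small margin (0.49 ± 0.28, adjusted p = 0.320). The multiplexins bridge basement membrane and stroma. Col18a1, the source of endostatin, read 389, 410.2 and 374 in the KO, against 267, 249 and 141 in wild type (0.84 ± 0.32, adjusted p = 0.171), and Col15a1 read 310.4, 316 and 270.0 against 251, 329 and 149 (0.34 ± 0.33). On a second Col18a1 probe set above the filter the groups overlapped, with a difference of 0.62.

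**Figure D2:**
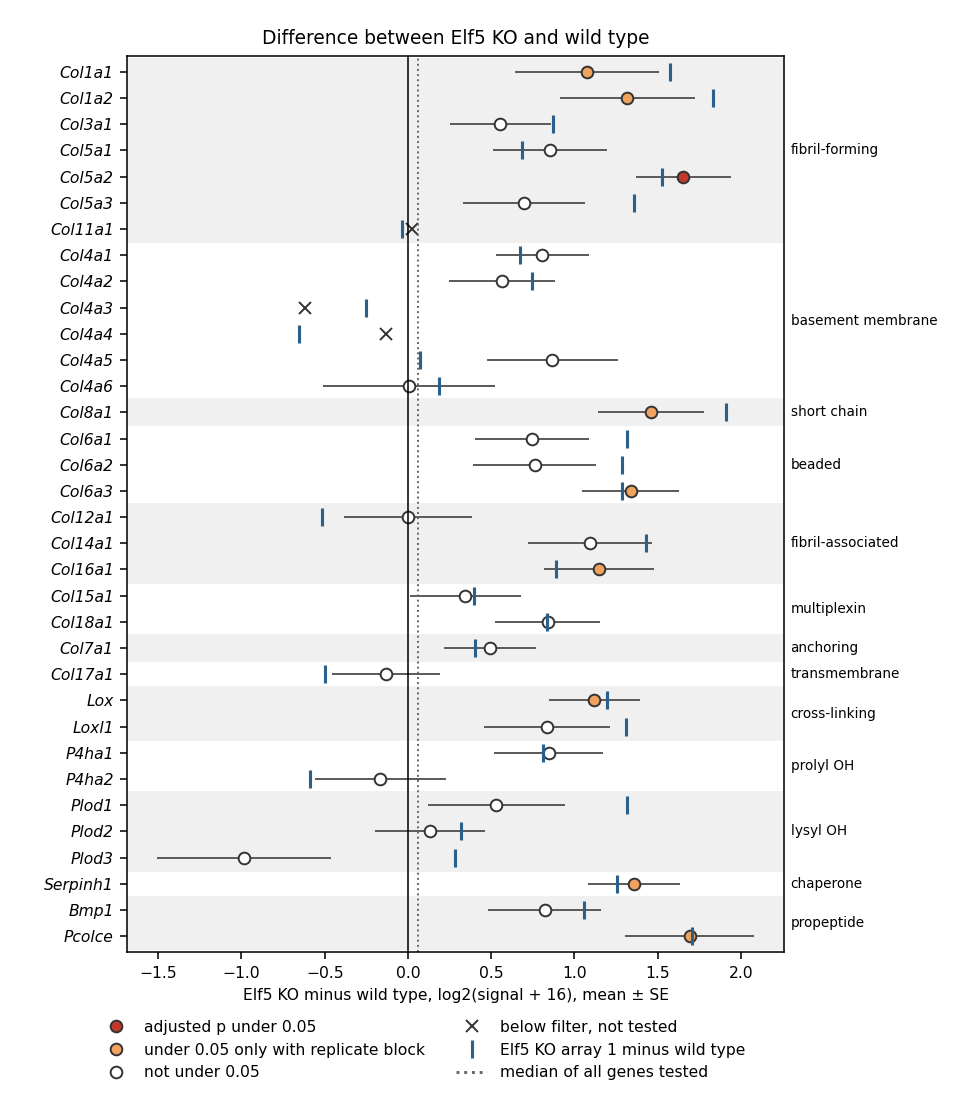
Elf5 KO minus wild type on the log2(signal + 16) scale for each gene, with the moderated SE (n = 3 arrays per group), grouped by role. The red circle passed, orange circles passed with the replicate block only, blue ticks give KO array 1 minus the wild-type mean, and crosses were below the filter. Most genes lie to the right of the dotted median of all genes tested (0.06), Col5a2 alone is filled red, and Plod3 is the only gene whose circle and blue tick lie far apart on opposite sides of 0.

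The chaperone and both genes of propeptide removal had a higher mean in the KO. Serpinh1, the collagen-specific chaperone of the endoplasmic reticulum, read 2143, 2164 and 2618 in KO arrays 1, 2 and 3, against 902, 1025 and 755 in wild type. It differed by 1.36 ± 0.28, just short of the threshold (adjusted p = 0.0513), and rose with the block (adjusted p = 0.0174). Its probe set is of a class that can also bind related transcripts, and a second probe set differed by only 0.28. Pcolce, a secreted enhancer of the protease that removes the C-terminal propeptide, read 1252, 743 and 2036 in the KO, against 394, 296 and 443 in wild type. All KO arrays were well above wild type, with a difference of 1.69 ± 0.39 (adjusted p = 0.0627, and 0.0139 with the block). Bmp1, that protease, read 201, 202 and 116 in the KO, against 124, 85.7 and 63.6 in wild type (0.82 ± 0.34, adjusted p = 0.201, and 0.0716 with the block), and KO array 3 fell inside the wild-type range.

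Both measured cross-linking oxidases had a higher mean in the KO. Lox read 529, 523 and 453 in the KO, against 207, 209 and 251 in wild type, a difference of 1.12 ± 0.27 (adjusted p = 0.0699) that passed with the block (adjusted p = 0.0336). Loxl1, better known for elastic fibres, read 850.1, 733 and 358 in the KO, against 365, 406 and 250.4 in wild type, and KO array 3 fell inside the wild-type range (0.83 ± 0.38, adjusted p = 0.235).

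The hydroxylases had no common direction, and none passed. P4ha1, a catalytic subunit of the collagen prolyl hydroxylase, read 170.3, 163 and 191 in the KO, against 138, 86.4 and 59.3 in wild type (0.84 ± 0.33, adjusted p = 0.181). P4ha2, the alternative subunit, read 119.9, 161 and 234 in the KO, against 328, 128 and 156 in wild type, with no separation (-0.17 ± 0.39). Plod1, a lysyl hydroxylase of the helical region, read 316, 190.0 and 89.3 in the KO, against 134, 125 and 97.1 in wild type (0.53 ± 0.41). Its KO values were highest in KO array 1, with the lowest Gapdh ratio, and lowest in KO array 3, with the highest. Plod2, which hydroxylates telopeptide lysines, read 90.9, 108 and 46.1 in the KO, against 71.6, 79.1 and 59.3 in wild type (0.13 ± 0.33). A second Plod2 probe set of similar brightness, which has the higher mean on the linear scale, differed by 0.96.

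Plod3, a lysyl hydroxylase that also adds glucose to collagen, had the lowest difference of the set. It read 1096, 301 and 267 in KO arrays 1, 2 and 3, against 1359, 832 and 643 in wild type, a difference of -0.98 ± 0.52 (adjusted p = 0.292). KO array 1 lay 0.28 above the wild-type mean and KO arrays 2 and 3, with Gapdh ratios of 3.89 and 13.6, lay far below every wild-type array. Without KO array 1, Plod3 passed downward at a difference of -1.61 (adjusted p = 0.0306). A fit with that ratio as covariate put the difference at -0.08. The part of RNA quality in this value was not tested.

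Probe sets for the same gene disagreed most in KO array 3, and this touched several processing genes. Over 4429 genes with 2 probe sets above the filter, the median absolute gap between the probe sets, each taken relative to its wild-type mean, was 0.27, 0.45 and 1.19 on the log2 scale in KO arrays 1, 2 and 3, against 0.24, 0.21 and 0.20 in wild-type arrays 1, 2 and 3. The gap was over 1 in 56.6% of these genes in KO array 3 and in 3.41% in KO array 1. The 16 members with such a pair had median gaps of 0.28, 0.32 and 0.88 in KO arrays 1, 2 and 3, and 6 of 16 exceeded 1 in KO array 3, against 0 of 16 in KO array 1. The dimmer probe set of Serpinh1 read 1995, 1668 and 441 in KO arrays 1, 2 and 3, against 832, 1243 and 787 in wild type, so KO array 3 was high on one probe set and low on the other. The second Lox probe set read 272, 487 and 47.1 in the KO, against 121, 213 and 214 in wild type, and the second P4ha1 probe set read 85.6, 61.3 and 0.3 in the KO, against 59.5, 83.5 and 54.3. Serpinh1, Lox and P4ha1 thus differed by 0.28, 0.11 and -0.68 on the second probe set. Despite these gaps, both probe sets had the same sign of difference in 15 of 16 members (93.8%), P4ha1 being the exception, against 60.6% of the 4429 genes. The mean over all probe sets of each gene gave a median difference of 0.56 over the members.

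**Figure D3:**
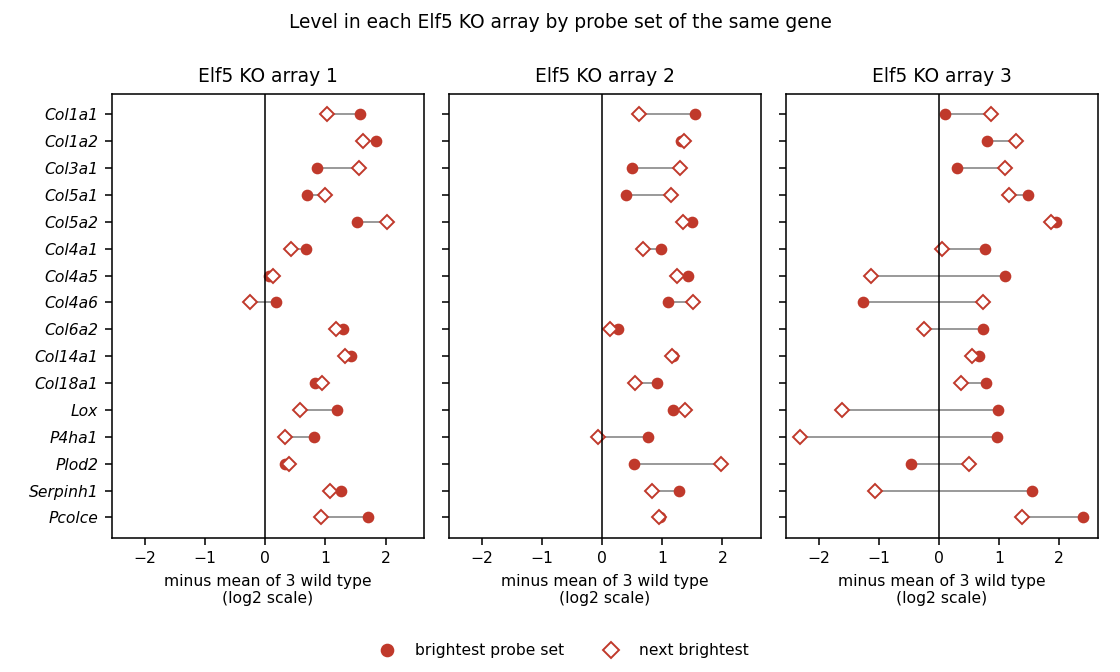
The 16 genes with 2 probe sets above the filter, each KO array minus the mean of the 3 wild-type arrays (log2 scale). Filled circles are the brightest probe set, open diamonds the next, and a line joins them. The pairs lie close together in KO array 1, where no gap exceeds 1, and 6 of 16 exceed 1 in KO array 3, among them Lox, P4ha1 and Serpinh1.

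The collagen difference was present in each KO array by the median of the set. The members tested lay 0.89, 0.91 and 0.53 above the wild-type mean in KO arrays 1, 2 and 3, against 0.04, 0.12 and 0.04 for all genes tested. The 21 collagen chains lay 0.87, 0.91 and 0.67 above, and the 10 processing proteins lay 1.13, 0.86 and 0.32 above. In KO array 1, whose Gapdh ratio of 0.802 was not raised, 28 of 31 members lay above the wild-type mean, against 5863 of all 10916 genes tested. KO array 3 was the lowest KO array for 16 of 31 members. Over all 10916 genes tested it was also the most frequent lowest KO array, for 4528. Fibril-forming chains were highest in KO array 1, at a median of 1.44 above wild type, against 0.90 and 0.67 in KO arrays 2 and 3. The tested type IV chains were highest in KO array 2, at 1.03, against 0.43 in KO array 1 and 0.42 in KO array 3.

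Fibroblast markers moved with the collagens. All 10 listed markers were above the filter, and their summed signal was 16516 to 21870 in the KO, against 7684 to 9205 in wild type. Of the list, 9 had a higher mean. Of the 10, 3 rose, where 1.13% of all genes did: Pdgfra, Dpt and Fap, with differences of 1.79, 1.81 and 1.96. With the block 6 of the 10 rose, against 7.7% of all genes, and the median lay 1.24, 1.17 and 1.16 above the wild-type mean in KO arrays 1, 2 and 3. Dcn and Fbln1, matrix genes of the same list, did not pass, at 0.51 ± 0.44 and -0.31 ± 0.43. In the other marker lists 1 gene passed, the endothelial Vwf (1.54, limma adjusted p = 0.0498). With the block, 2 of 6 macrophage, 2 of 6 skeletal muscle, 1 of 4 adipocyte and 1 of 7 endothelial markers rose. So did 1 of 9 myoepithelial and 1 of 6 luminal markers. Another luminal marker, Elf5, and 2 of 5 secretory markers fell with the block, where 4.53% of all genes did. Summed macrophage markers were 6424 to 13205 in the KO, against 3982 to 6011 in wild type, and pericyte and smooth muscle markers 1593 to 2119 against 1202 to 1435. Those sums did not overlap but rested on few bright genes (Lyz2 and Csf1r, and Rgs5). The macrophage markers had medians of 1.5, 0.46 and -0.32 relative to the wild-type mean in KO arrays 1, 2 and 3, and the pericyte and smooth muscle markers 0.27, 0.39 and -0.02. The 4 measured adipocyte markers summed to 18401 to 27112 in the KO, against 15551 to 18795 in wild type, and the 6 skeletal muscle markers to 1523 to 6902 against 298 to 4075. The adipocyte median lay 1.31, 0.91 and 0.06 above the wild-type mean in KO arrays 1, 2 and 3. That of skeletal muscle lay 0.77, 2.79 and 0.85 above it. All 4 and all 6 of these markers had a higher mean in the KO. Endothelial markers summed to 1247 to 1827 in the KO, against 1201 to 1370 in wild type, luminal markers to 17691 to 22700.4 against 21824 to 23346, and myoepithelial markers to 11312 to 17204 against 14181 to 19585. Elf5 itself is the brightest luminal marker, and without it the luminal sums were 12075 to 19288 in the KO, against 11335 to 16042 in wild type. Milk protein genes, the defining transcripts of this gland at this stage, were bright in all arrays, at 34876 to 63582 against 45971 to 139306. The 5 skin keratinocyte markers summed to 297 to 742 in the KO, against 398 to 1260 in wild type, with Krt1 and Ivl below the filter, and all 4 measured cartilage and bone markers were below it. The part of these cell types in the collagen result was not tested.

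**Figure D4:**
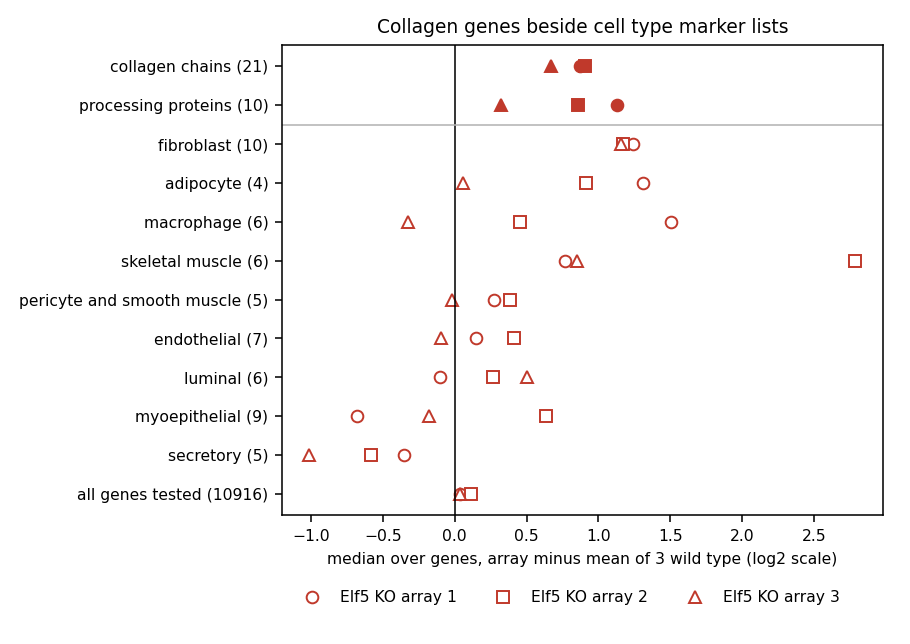
Median over the tested genes of each list of a KO array minus the mean of the 3 wild-type arrays (log2 scale), with a shape per KO array and the number of genes in brackets. Filled points are the collagen genes, open points the marker lists and all genes tested. Collagen chains (0.67 to 0.91) and fibroblast markers (1.16 to 1.24) lie right of 0 in each KO array. Skeletal muscle markers (0.77 to 2.79) and adipocyte markers (0.06 to 1.31) do so too, and secretory markers lie left of 0.

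Other genes of collagen assembly, turnover and reception gave a weaker picture. Of 78 listed, 72 were measured and 47 tested, of which 30 had a higher mean in the KO (63.8%, against 53.9% of all genes), with a median difference of 0.37. Among the 30, Adamts3, P3h1, P3h3 and Mrc2 had wild-type means under the filter. Of those with a lower mean, Col20a1, Mmp13 and Lair1 had KO means under it. Over all 72 measured, 39 had a higher mean and the median was 0.11, against -0.06 over all genes without a filter. Only Tgfbi, a secreted collagen-binding protein, passed over all genes. It read 712, 782 and 1322 in KO arrays 1, 2 and 3, against 318, 194 and 166 in wild type, and rose by 1.97 ± 0.36 (adjusted p = 0.0446). Its probe set can bind related transcripts, and the call was lost when such probe sets were passed over. With the block 6 rose, which adds the basement membrane linker Nid1 (1.40), the gelatinase Mmp2 (1.29), the collagen receptor Ddr2 (1.39), the N-propeptidase Adamts3 (1.47, kept by the filter through its KO arrays alone) and the fibril-binding proteoglycan Fmod (1.13). These 6 are 12.8% of the 47, against 7.7% of all genes. With the block 2 fell, where 4.53% of all genes fell: P4hb, the shared subunit of the prolyl hydroxylase (-1.15), and Creb3l1, a transcription factor of secretory cells (-1.44). P4hb read 6722, 3699.9 and 2052 in the KO, against 9943, 8876 and 6311 in wild type, with the lowest KO signal in the array with the highest Gapdh ratio. In KO array 1 the 6 genes that rose with the block lay above the wild-type mean by 1.64 (Tgfbi), 0.85 (Nid1), 1.58 (Mmp2), 1.10 (Ddr2), 0.41 (Adamts3) and 0.47 (Fmod). Creb3l1 and P4hb, which fell with the block, differed from that mean by -0.85 and -0.29 in the same array. Creb3l1 read 189.6, 150 and 58.5 in KO arrays 1, 2 and 3, against 313, 550 and 257 in wild type.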

How the data were processed

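RNA from 6 mammary glands was measured on 1 array each. The deposited table holds linear signal intensity values for 45101 probe sets. MAS5 and affy are the tools that the authors name, without a version, per the submitters' processing notes. The sources used here give no genome build. By its values, every array has a mean of 150 after 2% is trimmed at each end. The number of arrays limits the precision.

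Groups and replicate numbers came from the sample titles. Genes came from the platform annotation: 34945 probe sets have 1 gene, 932 have several and 9211 are not listed. Control probe sets (64) were left out. The probe set with the highest mean log2(signal + 16) stood for each gene, and genes under the 40th percentile of that mean (a signal of about 43.8) were left out, leaving 10916 of 18193. Fold changes on that scale understate the change of dim genes.

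For the test of KO against wild type, lmFit and eBayes of limma 3.58.1 (R 4.3.3) were run with an intensity trend and no block. P-values were adjusted by Benjamini-Hochberg across the genes tested, and 0.05 was the threshold. The fit was tested on simulated data. All adjusted p-values come from it unless a block is named. SE are limma's moderated standard errors. The titles speak of biological replicates. Deviations of same-numbered arrays from their group means correlated at 0.46, 0.34 and 0.29, each over the limit of 0.1. A blocked fit on the replicate number is therefore given where it changes a call. KO array 2 and wild-type array 3, which differ in number, also exceeded that limit, at 0.15. Deviations within a group cancel out, so some pairs of arrays must correlate positively. The correlations thus cannot show on their own that a number marks a shared block. The labels do not state what a number shares, and the count of calls with the block was known from earlier results.

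The members, gene lists, named-gene rule (all members, pathway genes that passed, Elf5, controls and marker lists) and tests were chosen with earlier results of these data known. Alternatives were the pseudocount, the filter, quantile normalization, the choice of probe set, no trend, the block, the Gapdh ratio as a covariate, arrays with a Gapdh ratio under 2, and each array left out. The choice by mean linear signal was added after seeing the data. Upstream windows came from RefSeq, GRCm38.p6.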

Additional observations from a re-analysis of the deposited data

How the results depend on the processing

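With 3 arrays per group the calls depended on single arrays and on how the replicate number was treated, while the direction of most members did not. Over 18 alternatives, 25 of the 31 tested members kept their direction. The median difference of the members was 0.56 with the mean of all probe sets, 1.00 with the Gapdh ratio as a covariate and 0.63 to 0.87 leaving out 1 array, against 0.82. The count of members that passed was 2 with the filter at the 60th percentile, 3 after quantile normalization, 9 with the replicate block, 0 with the Gapdh covariate, 0 in the low-ratio arrays (KO array 1 and all 3 wild-type arrays), and 0 to 7 leaving out 1 array, against 1. At an unadjusted p under 0.05 there were 16 and 15 members with the covariate and in the low-ratio arrays, and 10 to 17 leaving out 1 array. The 7 arose without KO array 1 (6 higher, 1 lower), where 1206 of all 10916 genes tested passed (11%). The member count was 0 without each other array in turn. With the filter at the 60th percentile, 110 of all 7277 genes tested passed. Of the other pathway genes, 0 passed without a filter, 0 with the mean of all probe sets, 0 with _s_at and _x_at probe sets passed over, 0 with the covariate, 0 in the low-ratio arrays, 8 with the block and 0 to 7 leaving out 1 array, against 1, with 12 to 25 at an unadjusted p under 0.05. Of all genes, 85 passed with a pseudocount of 1, 56 without a filter, 69 with the mean of all probe sets, 74 with _s_at and _x_at probe sets passed over, 1335 with the block, 0 with the covariate (1112 at an unadjusted p under 0.05), 0 in the low-ratio arrays (1013), and 0 to 1206 leaving out 1 array, against 135. The covariate, the low-ratio arrays, the block and leaving out 1 array all leave fewer residual degrees of freedom by construction. The cause of the changes in the counts was not tested. Col12a1 was at 0.0047 with a pseudocount of 1 and 0.088 after quantile normalization, and at -0.27 to 0.33 leaving out 1 array. Col4a6 was at -0.073 with a pseudocount of 1 and at -0.54 to 0.64 leaving out 1 array, Col17a1 at -0.41 to 0.055, P4ha2 at -0.42 to 0.21 and Plod2 at -0.071 to 0.43. Plod3 was at 0.28 in the low-ratio arrays, where KO array 1 is the only KO array. The block changed no call of a member other than the 8 named with it.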

Other observations

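Collagen genes outside the set were mostly dim: of 19 further collagens, 17 were measured and 4 were above the filter. Of these 4, Col13a1 had a higher mean in the KO (0.59) and 3 had a lower one, Col20a1 (-0.35) among them. The median difference of the 4 was -0.48, and none passed. The brightest was Col9a1, a fibril-associated collagen known from cartilage, which read 2559.5, 3169 and 3131 in KO arrays 1, 2 and 3, against 3042, 6393 and 4748 in wild type. Col2a1, the main cartilage collagen with which it is usually found, was below the filter on the same arrays. Col9a1 differed by -0.62 ± 0.32 (limma adjusted p = 0.286), opposite in sign to the fibril-forming chains, and wild-type array 1 lay inside the KO range. Col27a1, a fibrillar collagen, read 125, 88.7 and 129 in the KO, against 282, 183 and 158 in wild type. Its KO arrays lay wholly below wild type, with a difference of -0.76 ± 0.32 (adjusted p = 0.207).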
